A study of Mus musculus with 10 samples.

Results

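The ErbB receptors are a family of receptor tyrosine kinases, and the EGF family ligands are the growth factors that bind them. The genes described here are 10 of the 54532 genes of the deposited expression table, chosen by name: the ligands *Hbegf*, *Tgfa*, *Btc*, *Areg*, *Ereg* and *Nrg1*, the receptors *Egfr*, *Erbb2* and *Erbb3*, and *Errfi1*, an inhibitor of the receptors. RNA-seq was done on 10 retinas of 2-month-old BALB/c mice, an albino strain whose retina is sensitive to light. All mice were first kept in the dark for 12 hr. For 5 retinas (LD, light damage) the mice were then under 15000 lux for 1 day, and for the other 5 (NL, normal light) under 200 lux for 1 day. The comparison of LD with NL asks which genes respond to damaging light. Retinas are named by the numbers in their labels, 1, 4, 5, 7 and 8 for NL and 1, 4, 6, 7 and 8 for LD. The labels do not say whether each came from a separate mouse, so that p-values measure the spread between these 10 samples.

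Most EGF family ligands are made as precursors anchored in the cell membrane, and metalloproteases release them. The released ligand joins receptors into pairs, whose kinases start the Ras, PI3K and STAT pathways, and inhibitors such as *Errfi1* then damp the signal. In the retina these ligands are known as mitogens for progenitor cells and as signals to which Müller glia respond after injury.

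Expression is given in FPKM, fragments per kilobase of gene, with libraries brought to a common size. The retinas had 18965090 to 26832535 reads, and 1 read on a gene of 1 kb was worth 0.0388 to 0.0493 FPKM. Of the rod markers, 8 of 8 fell after LD (more than 2-fold, adjusted p under 0.01 in limma), and their summed level went from 8068 to 9881 FPKM in NL retinas to 1192 to 2409 FPKM in LD retinas. Of the microglia markers, 5 of 8 rose by the same limits, and their sum went from 31.1 to 47.3 FPKM to 57.0 to 138 FPKM. Of the cone markers, 4 of 6 fell. Of the Müller glia markers, 1 of 7 fell (*Glul*, log2 fold change -2.09). *Sox9* and *Slc1a3* of that list were higher by 0.79 and 0.50, short of 2-fold, and the list median was 0.08. Of the astrocyte markers, 2 of 4 rose (*Gfap*, 3.20, and *Aldh1l1*, 2.17), while *Pax2* and *S100b* had 0.36 and -0.47. In the paper, Müller glia also stained for GFAP after a longer light exposure of another strain. The marker lists of bipolar, amacrine, horizontal and ganglion cells had median log2 fold changes of -0.09, -0.04, -0.22 and 0.00. In a whole retina, fewer cells of a type and less RNA per cell cannot be told apart. The retinas NL-5 and NL-7, LD-1 and LD-7, and LD-4 and LD-6 were closer to each other than the other pairs were, with a chi-square per gene of 2.52 to 3.41 beside 10.9 to 38.6, which is above sampling noise. They were kept as separate samples.

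Promoter sequences were available for 6 of the 10 genes, from RefSeq on GRCm38.p6. The windows of 4 genes are shown because the values described next set these genes apart: *Tgfa*, *Btc* and *Erbb2* had higher values in LD retinas, while *Areg*, which lies near *Btc* on chromosome 5, had lower ones. Each run is the 250 bases before the RefSeq transcription start, 5′ to 3′ on the strand of the gene, with matches to searched motifs in capitals. The windows are chr5:91139349-91139598 (plus strand) for *Areg*, chr5:91402995-91403244 (minus strand) for *Btc*, chr6:86194972-86195221 (plus strand) for *Tgfa* and chr11:98412234-98412483 (plus strand) for *Erbb2*.
Areg: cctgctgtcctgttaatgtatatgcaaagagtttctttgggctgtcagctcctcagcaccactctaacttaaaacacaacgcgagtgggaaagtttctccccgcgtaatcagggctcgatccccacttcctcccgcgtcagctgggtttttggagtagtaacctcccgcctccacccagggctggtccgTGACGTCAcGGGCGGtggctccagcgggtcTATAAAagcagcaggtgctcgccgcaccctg
Btc: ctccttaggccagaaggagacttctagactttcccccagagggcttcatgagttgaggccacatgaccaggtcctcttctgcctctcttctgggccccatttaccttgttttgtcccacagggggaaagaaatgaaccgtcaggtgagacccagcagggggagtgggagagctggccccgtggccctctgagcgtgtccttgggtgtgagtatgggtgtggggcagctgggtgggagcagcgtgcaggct
Tgfa: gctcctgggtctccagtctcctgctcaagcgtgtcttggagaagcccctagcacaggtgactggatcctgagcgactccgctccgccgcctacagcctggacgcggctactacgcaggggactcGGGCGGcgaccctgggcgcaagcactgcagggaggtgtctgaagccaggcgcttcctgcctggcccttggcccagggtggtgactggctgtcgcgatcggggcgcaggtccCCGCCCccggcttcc
Erbb2: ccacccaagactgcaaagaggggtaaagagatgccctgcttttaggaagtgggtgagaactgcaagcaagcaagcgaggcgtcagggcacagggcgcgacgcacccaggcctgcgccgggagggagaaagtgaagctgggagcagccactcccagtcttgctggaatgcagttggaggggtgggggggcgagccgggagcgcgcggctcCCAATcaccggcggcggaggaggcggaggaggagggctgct
The motifs were searched on both strands. They were TGANTCA, the letters that AP-1 factors bind, TGACGTCA, the cyclic AMP response element (CRE), and TTCNNNGAA, a site of the STAT family. To these were added GGGCGG, bound by the factor Sp1, TATAAA, the core of a box near many starts (TATA), and CCAAT, the letters of another common promoter box (CAAT). The searched letters do not overlap between motifs in these windows. The *Areg* window held a CRE, which starts 61 bases before the transcription start, an Sp1 match 52 bases before it and a TATA match 31 bases before it. Of 32851 promoter windows of this length, 1.55% held a CRE, 32.7% an Sp1 match and 12.4% a TATA match. A CRE was not particular to *Areg*. A window of *Errfi1*, which was slightly higher in LD retinas, held a CRE 51 and a TATA match 28 bases before the start. That window, not shown here, also held Sp1 matches 152, 97 and 93 bases before it. The *Tgfa* window held Sp1 matches 126 and 15 bases before the start. The *Erbb2* window held a CAAT match 41 bases before the start, as 33.8% of all windows did, and none of these letters stood in the *Btc* window. AP-1 letters are in 6.75% of all windows and STAT letters in 7.02%, and neither was found in the windows of these 4 genes or of *Egfr* and *Errfi1*.

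**Figure D1:**
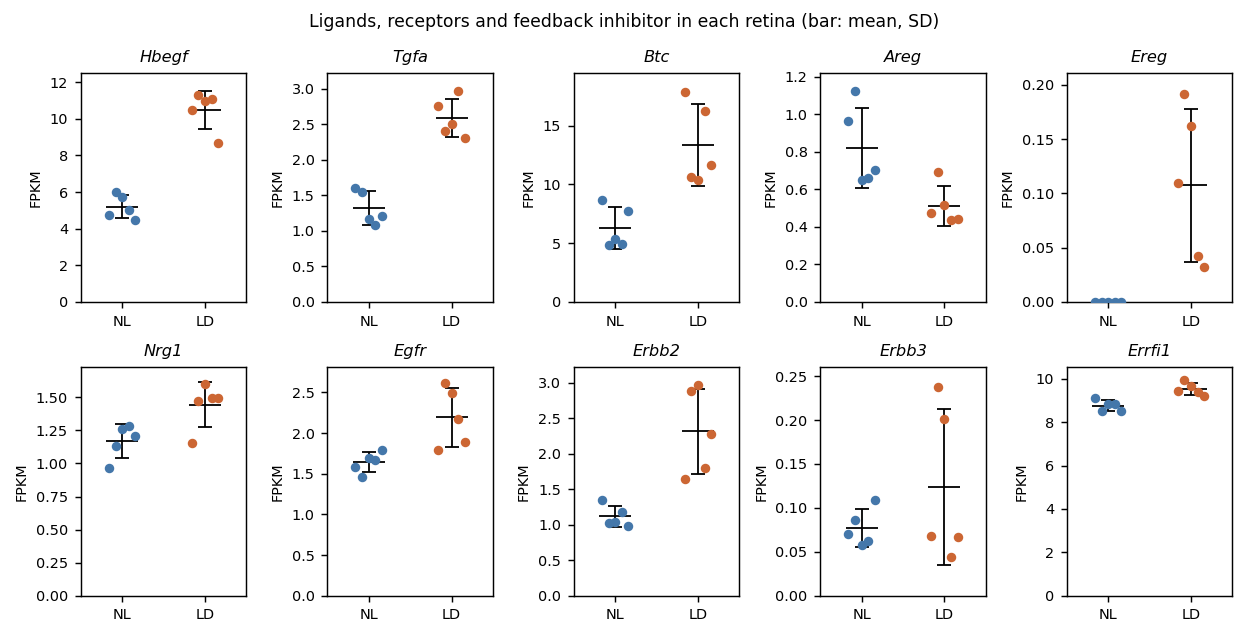
Level of each of the 10 genes in FPKM (y axis, from 0, a scale of its own per gene) in the 5 NL and 5 LD retinas (points), with the mean and SD (bars). The groups overlap for *Areg*, *Nrg1* and *Erbb3*. They do not overlap for the other 7 genes (6 of the 8 tested and *Ereg*), all higher in LD, beside 22.4% of all genes tested.

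After LD, *Hbegf* and *Btc* rose to about double their level in NL retinas. *Tgfa* and *Erbb2* had nearly the same ratios, 1.96 and 2.07, and missed the 2-fold limit on the log2 scale used for the test. *Areg* was the single member whose mean was lower. A gene was called changed at an adjusted p under 0.01 and a change of more than 2-fold in limma on log2(FPKM + 0.1), adjusted over the 24508 genes that reached 0.1 FPKM in 5 or more retinas. The fold changes below are on this scale, which understates changes of low genes. Of the 10 members, 8 passed the filter and 2 (*Erbb3* and *Ereg*) did not. *Hbegf* and *Btc* were called higher and 0 members were called lower, beside 4.13% of all genes tested called higher and 2.37% called lower. Without the 2-fold limit, 4 members had an adjusted p under 0.01 and were higher (*Hbegf*, *Tgfa*, *Btc* and *Erbb2*), as did 9.3% of all genes tested, and these 4 kept an adjusted p under 0.01 whichever single retina was left out. With the retinas of each close pair averaged, which leaves 4 NL and 3 LD samples, the adjusted p in limma was 0.00223 for *Hbegf*, 0.0120 for *Tgfa*, 0.0168 for *Erbb2* and 0.0316 for *Btc*, at log2 fold changes of 0.97, 0.86, 0.96 and 0.99. At an adjusted p under 0.05 there were 6 members higher and 1 lower, and 27.8% of all genes were past this limit in either direction. The median log2 fold change of the 8 tested members was 0.66, and that of all genes tested was -0.01.

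Among the ligands, heparin-binding EGF-like growth factor (*Hbegf*) binds *Egfr* and *Erbb4*. Its level was 4.77, 5.99, 5.71, 5.002 and 4.49 FPKM in NL-1, NL-4, NL-5, NL-7 and NL-8, and 10.5, 11.3, 10.9, 11.1 and 8.69 FPKM in LD-1, LD-4, LD-6, LD-7 and LD-8. The groups did not overlap, with all LD values higher, and the LD values other than that of LD-8 lay close together. The mean went from 5.19 ± 0.634 to 10.5 ± 1.05 FPKM (SD, n = 5 each), with 242 to 302 reads in NL retinas and 459 to 605 in LD retinas. The log2 fold change was 1.00 (SE 0.10, 95% interval 0.79 to 1.22), with an adjusted p of 3.31e-05 in limma, and the two-sided exact permutation p was 0.00794, the smallest that 5 against 5 retinas allow. The value sits on the 2-fold limit: without LD-4, LD-6, LD-7, NL-1, NL-7 or NL-8 it was 0.95 to 0.99, with adjusted p-values up to 1.85e-04 in limma.

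Transforming growth factor alpha (*Tgfa*), on chromosome 6 (chr6:86195223-86275719), binds *Egfr*. Its level was 1.61, 1.55, 1.16, 1.08 and 1.21 FPKM in NL-1, NL-4, NL-5, NL-7 and NL-8, and 2.76, 2.40, 2.50, 2.97 and 2.31 FPKM in LD-1, LD-4, LD-6, LD-7 and LD-8. The groups did not overlap, and LD-7 and LD-1 were highest. The mean was 1.32 ± 0.239 FPKM in NL and 2.59 ± 0.270 FPKM in LD (SD, n = 5 each). The change was 0.93 on the log2 scale (SE 0.13, 95% interval 0.64 to 1.22, adjusted p 4.15e-04 in limma), just under the 2-fold limit. It was 1.00 and past the limit without NL-1. On opposite strands, *Tgfa* shares exon bases with *Gm43917*, which had at most 5 reads in any retina.

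Betacellulin (*Btc*), on chromosome 5 (chr5:91357261-91402994), binds *Egfr* and *Erbb4*. Its mean FPKM was the highest among the ligands in both groups, with a range that overlapped that of *Hbegf*. The NL values were 8.65, 4.87, 5.34, 4.92 and 7.71 FPKM (NL-1, NL-4, NL-5, NL-7, NL-8), and the LD values were 17.9, 10.6, 10.4, 16.2 and 11.6 FPKM (LD-1, LD-4, LD-6, LD-7, LD-8). Each group was split, with NL-1 and NL-8 above the other NL retinas and LD-1 and LD-7 above the other LD retinas, yet the lowest LD value was above the highest NL value. The mean went from 6.30 ± 1.76 to 13.4 ± 3.46 FPKM (SD, n = 5 each), with 468 to 899 and 975 to 1970 reads. On the log2 scale the rise was 1.08 (SE 0.21, 95% interval 0.62 to 1.54, adjusted p 0.00309 in limma, exact permutation p 0.00794). It fell under the 2-fold limit without LD-1 (0.96), LD-7 (0.998) or NL-4 (0.997). Without LD-1 and LD-7 together it was 0.82 with an adjusted p of 0.0140 in limma, and without NL-1 and NL-8 together it was 1.35.

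Marker levels of other cell types differed between the same retinas. The summed microglia markers were 138 and 118 FPKM in LD-1 and LD-7 and 57.0 to 86.4 FPKM in the other LD retinas. The summed melanocyte markers were 12.5 and 29.2 FPKM in NL-1 and NL-8, beside 3.20 to 4.76 FPKM in NL-4, NL-5 and NL-7. Among the LD retinas they were lowest in LD-1 and LD-7, at 4.96 and 3.25 FPKM, beside 5.75 to 8.10 FPKM in the others. The 5 melanocyte markers had a median log2 fold change of -0.355. The summed retinal pigment epithelium markers were 88.8 and 137 FPKM in NL-1 and NL-8, beside 53.9 to 73.0 FPKM in the other NL retinas. In LD-1 and LD-7 that sum was 58.7 and 76.2 FPKM, beside 98.6 to 112 FPKM in the other LD retinas. The part of these cell types in the *Btc* levels was not tested.

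Amphiregulin (*Areg*) and epiregulin (*Ereg*) lie near *Btc* on chromosome 5, at chr5:91139599-91148432 and chr5:91074622-91093646. *Areg* binds *Egfr*. Its NL values were 0.962, 1.12, 0.649, 0.659 and 0.702 FPKM, and its LD values were 0.473, 0.690, 0.515, 0.434 and 0.444 FPKM, in the order of retinas used above. The LD retinas were lower except that LD-4 lay within the NL range, so that the groups overlapped. The mean was 0.819 ± 0.213 FPKM in NL and 0.511 ± 0.105 FPKM in LD (SD, n = 5 each), from 16 to 29 and 12 to 17 reads. Its log2 fold change was -0.58 (SE 0.19, 95% interval -1.0 to -0.15, adjusted p 0.0481 in limma, exact permutation p 0.0238). With 1 retina left out the adjusted p in limma was between 0.0318 and 0.105, and the direction held.

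*Ereg*, which binds *Egfr* and *Erbb4*, had 0 reads in each of the 5 NL retinas. It had 11, 16, 15, 4 and 3 reads in LD-1, LD-4, LD-6, LD-7 and LD-8, or 0.109, 0.191, 0.162, 0.0425 and 0.0327 FPKM. The sum was 49 reads in LD and 0 in NL, and 4 of the 5 LD retinas were above the 3 reads that a count of 0 allows. Set against 3 reads per NL library (a mean of 0.0333 FPKM), the LD mean of 0.108 ± 0.0704 FPKM (SD, n = 5) was at least 3.23-fold higher, a bound for counting error only. The exact permutation p was 0.00794. *Ereg* did not pass the filter, and with no filter on low values its adjusted p in limma was 0.0104. The antisense gene *Gm19610*, which shares exon bases with *Ereg*, had at most 2 reads in a retina. *Areg* and *Ereg* are known from epithelia, and the summed level of 6 surface epithelium markers was 0.337 to 0.450 FPKM in NL and 0.238 to 0.427 FPKM in LD, with 4 of the 6 under 0.1 FPKM in every retina.

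Neuregulin 1 (*Nrg1*), at chr8:31814551-32884029, binds *Erbb3* and *Erbb4* rather than *Egfr*. Its level was 0.962, 1.13, 1.26, 1.28 and 1.21 FPKM in the NL retinas and 1.16, 1.47, 1.60, 1.497 and 1.498 FPKM in the LD retinas. LD-1 lay within the NL range, and the other LD retinas lay above it. The log2 fold change of 0.28 (SE 0.12, 95% interval 0.01 to 0.56) did not pass, with an adjusted p of 0.122 in limma and an exact permutation p of 0.0317. The lincRNA *Gm26578* shares exon bases with it on the opposite strand and had at most 23 reads in an NL and 53 reads in an LD retina, beside 213 to 371 reads on *Nrg1*.

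Of the receptors, *Erbb2* had the largest ratio of LD to NL. It binds no known ligand and acts as the partner of the other receptors. Its level was 1.36, 1.03, 1.04, 1.18 and 0.990 FPKM in NL-1, NL-4, NL-5, NL-7 and NL-8, and 1.65, 2.88, 2.97, 1.79 and 2.29 FPKM in LD-1, LD-4, LD-6, LD-7 and LD-8. The groups did not overlap, and the LD group spread widely, with LD-4 and LD-6 highest and LD-1 and LD-7 lowest, the reverse of *Btc*. The mean was 1.12 ± 0.151 FPKM in NL and 2.31 ± 0.605 FPKM in LD (SD, n = 5 each). The log2 fold change was 0.96 (SE 0.18, 95% interval 0.56 to 1.35, adjusted p 0.00241 in limma, exact permutation p 0.00794). It passed the 2-fold limit without LD-1 (1.06), LD-7 (1.03) or NL-1 (1.02), and was 0.72 with an adjusted p of 0.0128 in limma without LD-4 and LD-6. *Erbb2* (chr11:98412470-98437716) shares exon bases on the opposite strand with *Mien1*, which went from 13.8 to 12.7 FPKM, and whether reads were counted by strand is not given in the sources used here.

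*Egfr*, the receptor of *Hbegf*, *Tgfa*, *Btc*, *Areg* and *Ereg*, lies at chr11:16752203-16918158. Its level was 1.58, 1.46, 1.70, 1.67 and 1.79 FPKM in the NL retinas and 1.80, 2.62, 2.49, 2.18 and 1.89 FPKM in the LD retinas. The lowest LD retina, LD-1, was just above the highest NL retina, NL-8, and LD-4 and LD-6 were highest. The mean was 1.64 ± 0.124 FPKM in NL and 2.20 ± 0.361 FPKM in LD (SD, n = 5 each). The log2 fold change of 0.39 (SE 0.12, 95% interval 0.12 to 0.66) had an adjusted p of 0.0354 in limma, and of 0.0181 to 0.0855 with 1 retina left out.

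*Erbb3* (chr10:128567523-128589652) is a receptor of neuregulins with a weak kinase. It had 9, 11, 7, 8 and 17 reads in NL-1, NL-4, NL-5, NL-7 and NL-8, and 10, 29, 27, 6 and 9 reads in LD-1, LD-4, LD-6, LD-7 and LD-8. Its level was 0.0771 ± 0.0211 FPKM in NL and 0.124 ± 0.0889 FPKM in LD (SD, n = 5 each). LD-4 and LD-6 were above all NL retinas and the other LD retinas were within or under the NL range, so that no difference was detectable at this depth (exact permutation p 0.389). In the same pair of retinas the summed endothelial markers were 88.2 and 88.4 FPKM, beside 53.2 to 57.0 FPKM in the other LD retinas and 38.8 to 48.0 FPKM in NL. *Kdr* made up most of this sum (means of 30.0 FPKM in NL and 49.8 FPKM in LD). It was the only marker of the list at an adjusted p under 0.05 in limma. The summed oligodendrocyte and Schwann cell markers were 19.3 and 19.96 FPKM in LD-4 and LD-6 and 12.1 to 12.9 FPKM in the other LD retinas. The summed rod markers were lowest there, at 1192 and 1271 FPKM, as were the summed cone markers, at 36.4 and 43.4 FPKM. Among the LD retinas, the summed Müller glia markers were highest there, at 700 and 728 FPKM beside 515 to 536 FPKM. The summed astrocyte markers were 150 and 147 FPKM there, beside 78.4 to 108 FPKM. The summed bipolar, horizontal cell, ganglion cell and pericyte markers were also highest there among the LD retinas. Those of amacrine cells, retinal pigment epithelium and melanocytes were highest in LD-8 instead, and those of microglia in LD-1 and LD-7. The part of these cell types in the levels of *Erbb2*, *Erbb3* and *Egfr* was not tested.

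*Errfi1* (chr4:150853919-150868892), which binds the kinase domain of *Egfr* and blocks it, had the smallest fold change among the tested members. Its NL values were 9.11, 8.52, 8.86, 8.84 and 8.52 FPKM and its LD values were 9.46, 9.97, 9.65, 9.38 and 9.21 FPKM. The groups did not overlap, but the ratio of the means was 1.09. Its log2 fold change was 0.12 (SE 0.04, 95% interval 0.03 to 0.21, adjusted p 0.0482 in limma). Of the 8 tested members, 6 had groups that did not overlap (*Hbegf*, *Tgfa*, *Btc*, *Egfr*, *Erbb2* and *Errfi1*), beside 22.4% of all genes tested.

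**Figure D2:**
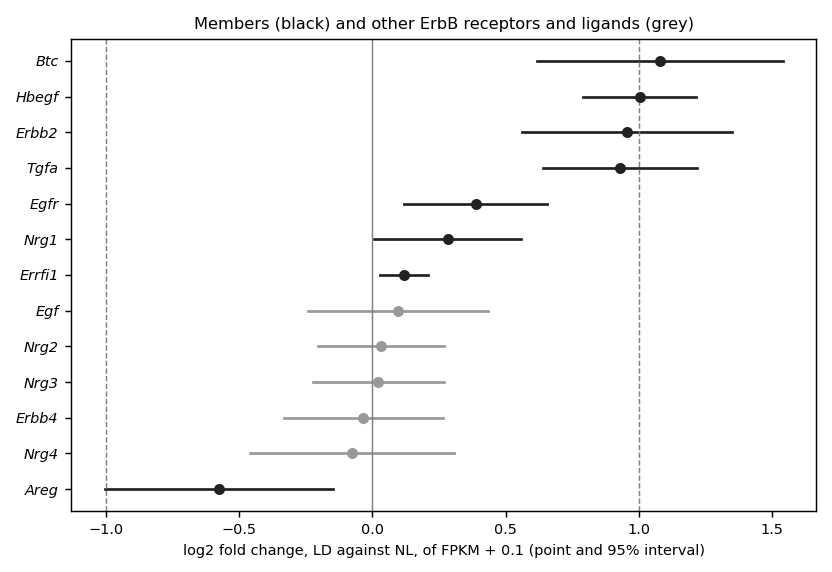
Log2 fold change of LD against NL on FPKM + 0.1 (x axis; points, with 95% intervals from limma as lines) for the 8 tested members (black) and 5 other receptors and ligands (grey); dashed lines mark 2-fold. *Btc*, *Hbegf*, *Erbb2* and *Tgfa* lie between 0.93 and 1.08, the grey genes between -0.08 and 0.10, and *Areg* at -0.58.

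The other receptor and ligands of the family had log2 fold changes near 0. *Erbb4*, the receptor that binds neuregulins, *Hbegf*, *Btc* and *Ereg*, was at 1.46 ± 0.0851 FPKM in NL and 1.44 ± 0.269 FPKM in LD (SD, n = 5 each), a log2 difference of -0.03 (95% interval -0.33 to 0.26, adjusted p 0.885 in limma). *Egf* itself had a log2 fold change of 0.10 (95% interval -0.24 to 0.43), from 0.476 to 0.515 FPKM. The neuregulins *Nrg2*, *Nrg3* and *Nrg4* had 0.03, 0.02 and -0.08, with means of 3.61, 2.00 and 0.659 FPKM in NL. Epigen (*Epgn*), the other ligand gene of the chromosome 5 cluster, was at 0.0107 FPKM in NL and 0.0334 FPKM in LD and did not pass the filter. Of these 6 genes, 5 were tested and 0 were called, with 0 at an adjusted p under 0.05 and 0 at an unadjusted p under 0.05.

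Levels per length of gene put the members in different orders in the groups. In NL retinas the order of the mean FPKM was *Errfi1*, *Btc*, *Hbegf*, *Egfr*, *Tgfa*, *Nrg1*, *Erbb2*, *Areg*, *Erbb3* and *Ereg*. The ranges of neighbours overlapped except between *Hbegf* and *Egfr*, between *Areg* and *Erbb3* and between *Erbb3* and *Ereg*. In LD retinas the order was *Btc*, *Hbegf*, *Errfi1*, *Tgfa*, *Erbb2*, *Egfr*, *Nrg1*, *Areg*, *Erbb3* and *Ereg*. There the ranges of neighbours overlapped except between *Errfi1* and *Tgfa*, between *Egfr* and *Nrg1*, between *Nrg1* and *Areg* and between *Areg* and *Erbb3*.

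To ask whether the members changed unequally, each was divided by *Egfr* within the same retina, which removes the scaling of the library except through the pseudocount. Relative to *Egfr*, *Hbegf* rose by 0.61 on the log2 scale and *Areg* fell by 0.96. Both had groups that did not overlap, with an exact permutation p of 0.00794 and an adjusted p of 0.0357 over the 9 ratios. Part of the lower *Areg* ratio is the rise of *Egfr* itself, by 0.39. Undivided, *Areg* changed by -0.58 with overlapping groups, from 16 to 29 reads in NL and 12 to 17 in LD. *Erbb2* rose by 0.57 relative to *Egfr* (exact permutation p 0.0159, adjusted p 0.0357), with overlapping groups. The ratio of *Tgfa* was higher by 0.54 (exact permutation p 0.0476, adjusted p 0.0714) and that of *Btc* by 0.69 (exact permutation p 0.0556, adjusted p 0.0714). The ratio of *Errfi1* was lower by 0.27 (exact permutation p 0.0476, adjusted p 0.0714), and that of *Nrg1* differed by -0.11 (exact permutation p 0.310). The ratio of *Ereg* also passed (0.60, adjusted exact permutation p 0.0357), but its NL values hold only the pseudocount of 0.1 FPKM. When each retina was left out in turn, *Hbegf* and *Areg* passed in 10 of 10 such tests. *Erbb2* passed in 3 of 10 (without NL-1, LD-1 or LD-7), and in the others its adjusted exact permutation p was 0.0536 to 0.0857. *Ereg* passed in 5 of 10, and without any NL retina its adjusted exact permutation p was 0.0714 to 0.107.

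**Figure D3:**
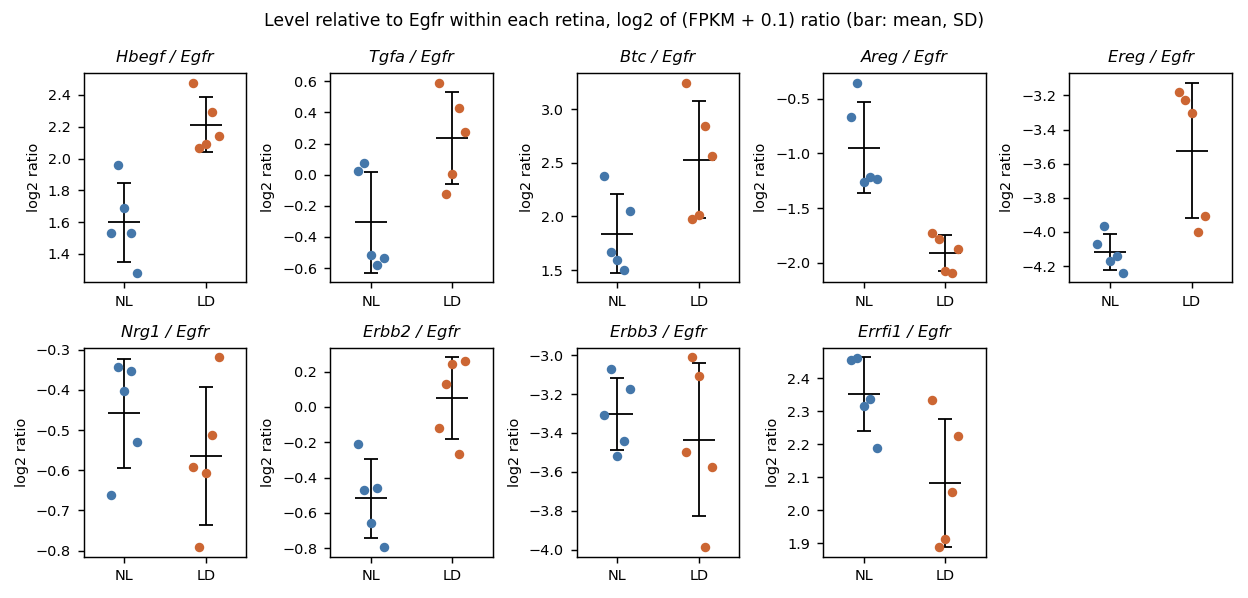
Log2 ratio of each member to *Egfr* within a retina, of FPKM + 0.1 (y axis, a scale of its own per gene), in 5 NL and 5 LD retinas (points) with the mean and SD (bars). The *Hbegf* ratio of every LD retina lies above those of the NL retinas (means 1.60 and 2.21), and the *Areg* ratio lies below (means -0.95 and -1.91).

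The spread within a group was not shared by all members. Among the LD retinas, *Egfr*, *Erbb2*, *Erbb3*, *Areg*, *Ereg* and *Errfi1* had their highest values in LD-4 and LD-6, while *Tgfa* and *Btc* had theirs in LD-1 and LD-7. *Btc* stood 0.45 and 0.32 above the LD mean of log2(FPKM + 0.1) in LD-1 and LD-7, where *Erbb2* stood at -0.43 and -0.31. In LD-4 and LD-6, *Erbb2* stood at 0.34 and 0.38 and *Btc* at -0.29 and -0.32. Both pairs are among the close pairs of retinas named above.

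**Figure D4:**
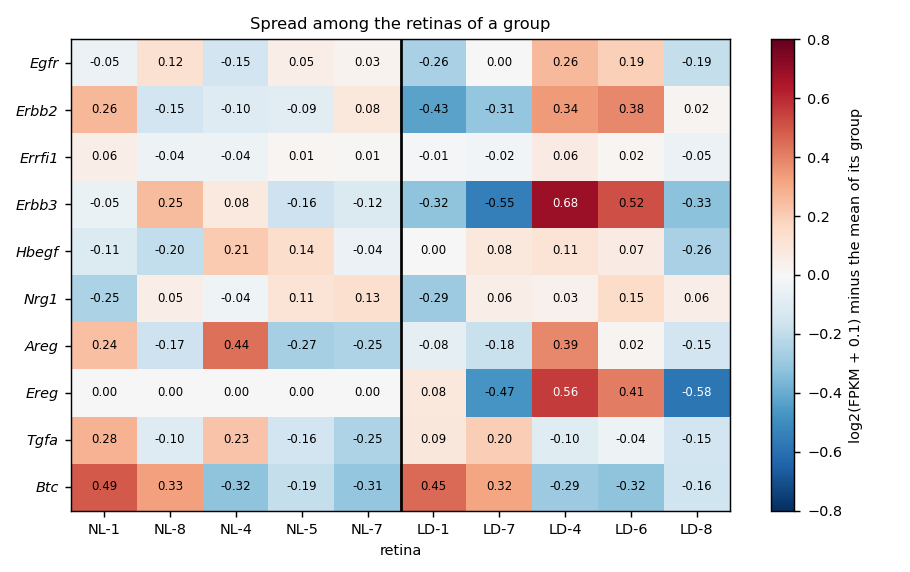
Deviation of each member's log2(FPKM + 0.1) from the mean of its group (colour and printed value) in each retina (columns; black line between NL and LD). The colours of *Btc* and *Erbb2* are opposite in LD-1, LD-7, LD-4 and LD-6, and the deviations of *Errfi1* run from -0.05 to 0.06.

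For the called members, the protein-coding genes with the most similar profile over the 10 retinas were sought among 12688 genes, by the root mean square difference of their centred log2(FPKM + 0.1). *Coro1a* (0.107), *Synm* (0.109) and *Mcam* (0.121) were nearest to *Hbegf*, whose own profile had a root mean square of 0.522. *Gnb3* (0.129), *Antxr2* (0.133) and *Rnf144b* (0.135) were nearest to *Btc*, whose own was 0.633. *Coro1a* encodes an actin-binding protein of leukocytes, and *Gnb3* a G protein subunit of cones and ON bipolar cells. *Gnb3* went from 270.0 ± 68.4 to 652 ± 176 FPKM and *Coro1a* from 3.06 ± 0.169 to 5.93 ± 0.344 FPKM (SD, n = 5 each).

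Around the members, 97 further genes of the pathway were grouped by role, and 94 of them were tested. After LD, 11 were called higher and 0 lower, beside 4.13% and 2.37% of all genes tested. In limma, 48 of the 94 had an adjusted p under 0.05 in either direction, beside 27.8% of all genes, and the median log2 fold change of the 94 was 0.13, beside -0.01 for all genes. The lists were written with earlier results of these data known and no set test was run. These shares therefore cannot show that the pathway as a whole responded. The list for ligand release held 1 called gene of 12 tested, and no protease of the list was called. *Cd9*, a tetraspanin that binds the *Hbegf* precursor, rose from 19.4 ± 1.55 to 41.5 ± 13.3 FPKM (log2 fold change 1.04, SE 0.19, adjusted p 0.00195 in limma). The main sheddases *Adam10* and *Adam17* had log2 fold changes of -0.03 and 0.05 (adjusted p 0.713 and 0.596 in limma). *Rhbdf2*, which brings *Adam17* to the cell surface, had 0.70 (from 1.56 ± 0.271 to 2.60 ± 0.394 FPKM, adjusted p 0.00472 in limma), short of 2-fold.

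The list of heparan sulfate and co-receptor proteins had 4 called genes of 12 tested and the highest median of the lists, 0.65. No syndecan or glypican, the heparan sulfate proteins of the list, was called. *Sdc1*, *Sdc4*, *Gpc1* and *Gpc3* had log2 fold changes of 0.60, 0.53, 0.57 and 0.26, and *Sdc2* and *Sdc3* had -0.12 and -0.23. *Gpc4* went from 2.29 ± 0.545 to 3.89 ± 0.644 FPKM, with every LD value above the NL values. *Cd44* rose from 1.85 ± 0.275 to 14.9 ± 1.70 FPKM (log2 fold change 2.95, SE 0.11, adjusted p 4.86e-08 in limma). *Muc1*, a membrane mucin, had a log2 fold change of 1.95 (SE 0.23), and the integrin subunits *Itga5* and *Itgb4* had 1.13 (SE 0.14) and 1.10 (SE 0.20). All 3 had groups that did not overlap.

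Among 41 adaptors and kinases, *Stat3* and *Plcg2* were called, and the list median was 0.10. *Stat3* rose from 12.3 ± 2.10 to 44.1 ± 3.96 FPKM (log2 fold change 1.85, SE 0.11, adjusted p 1.25e-06 in limma). *Plcg2*, a phospholipase best known from leukocytes, rose by 1.31 (SE 0.21) from 0.378 FPKM. At an adjusted p under 0.05, 15 of the 41 were higher and 7 lower.

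Among the negative regulators, 4 of 24 tested were called. *Socs3* rose from 2.12 ± 0.304 to 51.0 ± 19.0 FPKM (log2 fold change 4.46, SE 0.22, adjusted p 3.21e-07 in limma), and *Socs2* had a log2 fold change of 1.06 (SE 0.11). The phosphatases *Ptpn1* and *Ptpn6* had 1.16 (SE 0.07) and 1.52 (SE 0.20). These genes also act on cytokine receptors, and *Ptpn6* is a gene of leukocytes, whose rise accompanied that of the microglia markers given above. The part of these cells in the result was not tested.

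**Figure D5:**
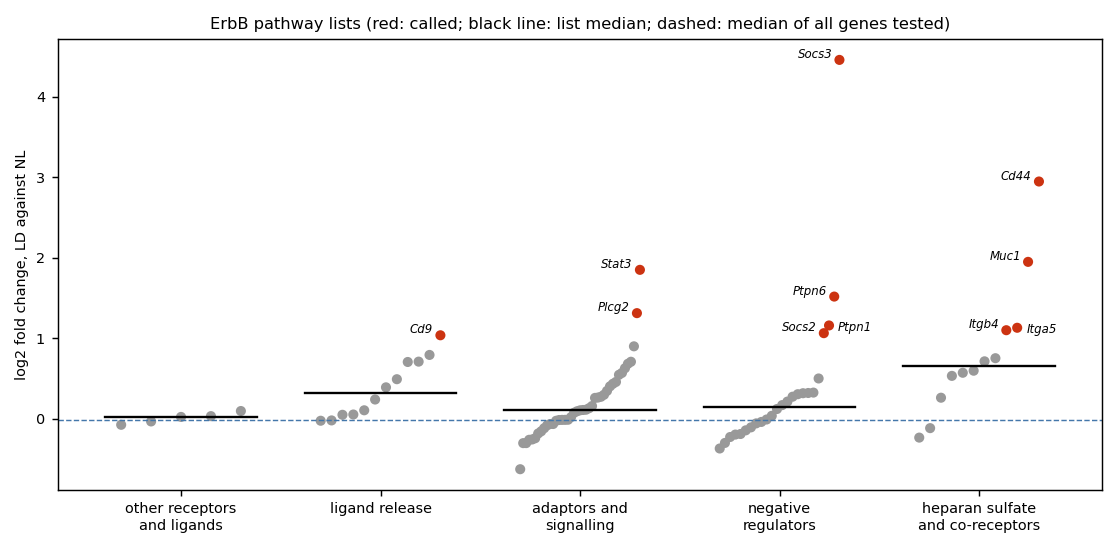
Log2 fold change of LD against NL (y axis) for the 94 tested genes of 5 pathway lists (points, red where called, with names), the median of each list (black line) and that of all genes tested (dashed). The medians run from 0.02 for the other receptors and ligands to 0.65 for the heparan sulfate and co-receptor proteins, and *Socs3* is highest at 4.46.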

How the data were processed

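The 10 retina samples (5 NL, 5 LD, grouped by the sample labels) were profiled by RNA-seq. The labels give TRIzol extraction and a TruSeq RNA kit, the paper a HiSeq instrument with paired reads and the series text a NovaSeq. The authors deposited 1 table of FPKM values per gene and retina, normalized by a sequencing company. The submitters' processing notes name TopHat2 2.0.9, Bowtie2 2.0.6 and mm8, yet the positions in the table are those of GRCm38: all 10 members are in GENCODE M21, 9 with the same start and end. The counting program and its annotation are not given in the sources used here.

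Since 100% of the values, times the length of the gene, came out as whole reads (within 0.01 read), the reads behind each value were recovered. The deposited library size was the sum of reads times a factor, 0.951 to 0.968 in NL and 1.04 to 1.07 in LD. From the deposited FPKM, log2(FPKM + 0.1) was fitted for genes that reached 0.1 FPKM in 5 or more retinas, in limma 3.58.1 (R 4.3.3) with an intensity trend and Benjamini-Hochberg adjustment, which was tested on simulated data. Genes were called at an adjusted p under 0.01 and over 2-fold. Single members and ratios to *Egfr* were compared by two-sided exact permutation tests (scipy 1.17.1, numpy 2.4.6, pandas 2.3.3, Python 3.11.15; plots with matplotlib 3.10.9). Intervals from limma are 95%. The floor of 3 reads covers counting error only.

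The members, pathway lists, marker lists and tests were chosen with earlier results of these data known. Named genes are all members, all called genes of the pathway lists, *Erbb4*, *Egf*, *Nrg2*, *Nrg3*, *Nrg4*, *Epgn*, *Adam10*, *Adam17* and *Rhbdf2*, and for each called member the 3 protein-coding genes of nearest profile whose mean reached 1 FPKM in either group. Genes that share exon bases with a member, and *Nras*, *Akt2* and *Gab1*, were named outside this rule, after their values were seen. So were the markers *Glul*, *Sox9*, *Slc1a3*, *Gfap*, *Aldh1l1*, *Pax2*, *S100b* and *Kdr*. The same holds for *Sdc1*, *Sdc2*, *Sdc3*, *Sdc4*, *Gpc1*, *Gpc3* and *Gpc4*. Alternatives changed the pseudocount, filter, scaling, trend, test, threshold, pairing and retinas. Leaving out the pairs NL-1 and NL-8, LD-1 and LD-7, and LD-4 and LD-6 was added after the values were seen. The western blots, histology and RT-PCR of the study were not analysed here, and some genes are not reported.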

Additional observations from a re-analysis of the deposited data

How the results depend on the processing

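The log2 fold changes of the 8 tested members kept their direction under all alternatives that gave a value. *Areg* had none with the filter of 1 FPKM, which it did not pass. The 2-fold limit decided most changes of call. Members called higher, 2 as reported, were 4 as TPM or without the factor per retina (*Hbegf*, *Btc*, *Erbb2* and *Tgfa*), 1 after quantile normalization and 0 with a pseudocount of 1 or with the closest pairs averaged. They were 1 without NL-1 and NL-8 (*Btc*), 1 without LD-4 and LD-6 (*Btc*) and 1 without LD-1 and LD-7. In this last case the called member was *Erbb2*, and neither *Hbegf* nor *Btc* was called. With a single retina left out they were 1 to 3, and without LD-7 the 1 was again *Erbb2*. The range over all alternatives was 0.89 to 1.13 for *Hbegf* (adjusted p 1.22e-05 to 0.00223 in limma), 0.82 to 1.35 for *Btc* (0.00122 to 0.0316), 0.63 to 1.20 for *Erbb2* (4.51e-04 to 0.0657), 0.63 to 1.07 for *Tgfa* (6.36e-05 to 0.0228), 0.24 to 0.51 for *Egfr* (0.00987 to 0.215), 0.17 to 0.41 for *Nrg1* (0.0316 to 0.359), 0.09 to 0.25 for *Errfi1* (0.00127 to 0.230) and -0.71 to -0.26 for *Areg* (0.0318 to 0.157). Under an adjusted p under 0.05 with no minimum fold, 6 members were higher and 1 lower. The ratios to *Egfr* that differed, 4 as reported, were 2 to 5 with a retina left out. They were 2 without NL-4, NL-5, NL-7 or NL-8.

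The 1013 genes called higher became 664 with a filter of 1 FPKM, 504 with a pseudocount of 1 and 3543 at an adjusted p under 0.05. The 582 called lower became 366 with the closest pairs averaged, 368 without LD-4 and LD-6, 312 with a pseudocount of 1 and 3275 at an adjusted p under 0.05. The 11 pathway genes called became 7 with the pairs averaged, 6 without LD-4 and LD-6 and 5 with a pseudocount of 1. Leaving out the factor per retina moved the median of all genes from -0.01 to 0.11, and the log2 fold changes of *Errfi1*, *Nrg1* and *Egfr* were then 0.25, 0.41 and 0.51.

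With the 4 replicate numbers that both groups share as a replicate block, 550 genes were called higher, 258 lower, 1 member and 5 pathway genes. Without the block, the same retinas gave 813 higher, 369 lower, 1 member and 8 pathway genes. Retinas of the same number had correlations of -0.0893 to 0.0656, so that the numbers were not taken to pair the samples. Depth limits *Ereg*, *Erbb3* and *Areg*, with at most 29 reads in a retina.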

Other observations

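Among the adaptors and kinases, 3 genes that stayed under 2-fold were picked after their values were seen. *Nras* went from 5.87 ± 0.899 to 9.40 ± 0.363 FPKM (log2 fold change 0.68, adjusted p 4.54e-04 in limma). *Akt2* went from 11.5 ± 0.228 to 17.8 ± 1.12 FPKM (0.63, adjusted p 6.06e-06 in limma), and the adaptor *Gab1* from 4.92 ± 0.509 to 9.30 ± 1.38 FPKM (0.90, adjusted p 1.51e-04 in limma). Each was higher in 5 of 5 LD retinas than in any NL retina. The rod markers fell in the same LD retinas, and the part of the rods in these values was not tested.

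None of 60 groups of retinas, one per gene and condition, held a retina far from the others by Dixon's criterion, where chance would give 3. The criterion looks for a single retina, so it does not cover groups split by a pair of retinas, as those of *Btc* were.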
